A study of Rattus norvegicus with 20 samples.

Results

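The genes examined were 9 that encode components of the perineuronal net, found by their symbols in the raw count matrix: the lecticans *Acan*, *Bcan*, *Ncan* and *Vcan*, the link proteins *Hapln1*, *Hapln2* and *Hapln4*, the tenascin *Tnr* and the hyaluronan synthase *Has3*. All 9 were among the 31038 gene symbols listed, and all 9 were among the 16605 genes with enough reads to be tested. They were measured by RNA-seq, after poly(A) selection, in the medial prefrontal cortex (mPFC) of 20 male Sprague-Dawley rats, with 1 library per rat. LSD-treated rats (10) received 0.16 mg/kg of lysergic acid diethylamide, a psychedelic that activates the serotonin 2A receptor, by intraperitoneal injection on alternate days for 90 days, and saline-treated rats (10) received saline on the same schedule. By the labels, both groups were 6 to 8 weeks old at the start and were sampled 3 weeks after treatment had ended, where the study's methods give a somewhat higher age and longer interval; all rats were housed singly.

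The perineuronal net is a lattice of extracellular matrix that forms around the cell body and proximal dendrites of certain neurons, above all parvalbumin interneurons of the cortex, late in postnatal development. Hyaluronan made at the cell surface is its backbone; lecticans, which are chondroitin sulphate proteoglycans, bind hyaluronan through one end, link proteins lock that bond, and tenascin-R cross-links the lecticans at their other end. Closure of juvenile plasticity in the cortex accompanies its formation, and enzymatic removal of its chondroitin sulphate can restore plasticity in adult animals. Several of these genes also act outside nets: brevican, neurocan and versican are found in the loose matrix between cells, and HAPLN2 is found at the nodes of Ranvier of myelinated axons.

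Promoter sequences are shown for *Hapln1* and *Bcan*, which passed the test in opposite directions, and for *Ncan* and *Acan*, whose levels varied together among rats. Each covers 250 bases before to 50 bases after the annotated start, written 5′ to 3′ on the strand of the gene, and was taken from RefSeq on build GRCr8, whereas the reads had been aligned to rn6. Capitals mark matches, on either strand, to the GC box GGGCGG, the cyclic AMP response element TGACGTCA, the E-box CACGTG or the TATA box TATAAA. These are at chr2:22366717-22367016 on the plus strand for *Hapln1*, chr2:175765265-175765564 on the minus strand for *Bcan*, chr16:19335657-19335956 on the plus strand for *Ncan* and chr1:142390701-142391000 on the plus strand for *Acan*.
Hapln1: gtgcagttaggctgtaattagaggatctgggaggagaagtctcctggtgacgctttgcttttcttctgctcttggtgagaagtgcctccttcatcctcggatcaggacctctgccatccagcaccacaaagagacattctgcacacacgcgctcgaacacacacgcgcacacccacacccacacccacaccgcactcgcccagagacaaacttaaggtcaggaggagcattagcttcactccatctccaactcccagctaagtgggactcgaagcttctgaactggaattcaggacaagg
Bcan: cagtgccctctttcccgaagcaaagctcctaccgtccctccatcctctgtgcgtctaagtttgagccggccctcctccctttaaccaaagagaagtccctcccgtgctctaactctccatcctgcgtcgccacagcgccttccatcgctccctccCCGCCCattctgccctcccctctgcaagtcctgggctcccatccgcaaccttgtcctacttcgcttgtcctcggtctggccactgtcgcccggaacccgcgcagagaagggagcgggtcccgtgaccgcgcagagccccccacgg
Ncan: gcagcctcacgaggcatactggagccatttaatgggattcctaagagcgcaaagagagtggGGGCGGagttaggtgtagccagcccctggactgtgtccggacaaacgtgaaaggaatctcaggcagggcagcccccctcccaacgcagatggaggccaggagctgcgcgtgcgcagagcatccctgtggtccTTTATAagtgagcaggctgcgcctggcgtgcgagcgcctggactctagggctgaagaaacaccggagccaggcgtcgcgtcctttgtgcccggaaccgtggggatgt
Acan: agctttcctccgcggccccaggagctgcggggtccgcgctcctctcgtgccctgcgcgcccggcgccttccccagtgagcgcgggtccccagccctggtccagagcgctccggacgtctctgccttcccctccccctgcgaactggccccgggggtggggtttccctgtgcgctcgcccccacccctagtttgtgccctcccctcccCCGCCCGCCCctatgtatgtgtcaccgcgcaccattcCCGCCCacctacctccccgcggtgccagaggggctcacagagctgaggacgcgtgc
The *Hapln1* window held none of the 4 motifs, 53.7% G or C and 10 CpG dinucleotides. The *Bcan* window held 1 GC box, 95 bases before the start, and had 64.0% G or C with 22 CpG. *Ncan* had 1 GC box 189 bases and 1 TATA box 57 bases before the start, and *Acan* had 3 GC boxes, of which a pair overlapped by 2 bases. Among all 33469 promoter entries of that length, 33.1% held a GC box, 1.83% the cyclic AMP response element, 6.42% the E-box and 14.2% the TATA box, and the median entry had 51.7% G or C and 7 CpG. Sequence was found for 8 of the 9 members (the other was *Has3*), and a match describes letters only.

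Each LSD library held between 16346629 and 25552681 reads on genes and each control library between 11098076 and 24201351. Across all genes, 1076 were higher and 1418 lower in LSD-treated rats at an adjusted p under 0.05, counts that changed to 659 and 907 without LSD rat 8, while the higher genes numbered 705 without Saline rat 4 and 1681 without Saline rat 2. The markers of excitatory cortical neurons summed to between 3456 and 5336 RPM (normalised reads of the gene per 1000000 reads on genes) over all 20 libraries. The 7 striatal neuron markers summed to 202 to 445 RPM in LSD-treated rats and 233 to 629 RPM in controls, and were highest, at 445 to 629 RPM, in LSD rat 9 and Saline rats 2, 8 and 9, so each count of calls was also made without those 4 libraries. The same 4 libraries were also the highest in summed oligodendrocyte markers, at 6096 to 7893 RPM, with Saline rat 3 next at 5724 RPM. Leaving them out therefore does not separate striatal from oligodendrocyte content.

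Of the 9 members, *Hapln1* was higher and *Bcan* was lower in LSD-treated rats, and the other 7 did not pass the test. Over all genes tested 15.0% were called, 6.48% as higher and 8.54% as lower, and the 2 calls among 9 genes were not read as particular to the members. Without the 4 striatal-high libraries *Hapln1* and *Bcan* were again the 2 members called, beside 20.3% of all genes. The members' log2 fold changes ran from −0.33 for *Hapln2* to 0.31 for *Tnr*, 5 positive and 4 negative, with a median of 0.0027 against 0.0022 over all genes tested. Within the lecticans and within the link proteins, members lay on both sides of 0. RNA was taken from whole tissue, in which fewer cells of a type and less RNA per cell cannot be told apart.

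**Figure D1:**
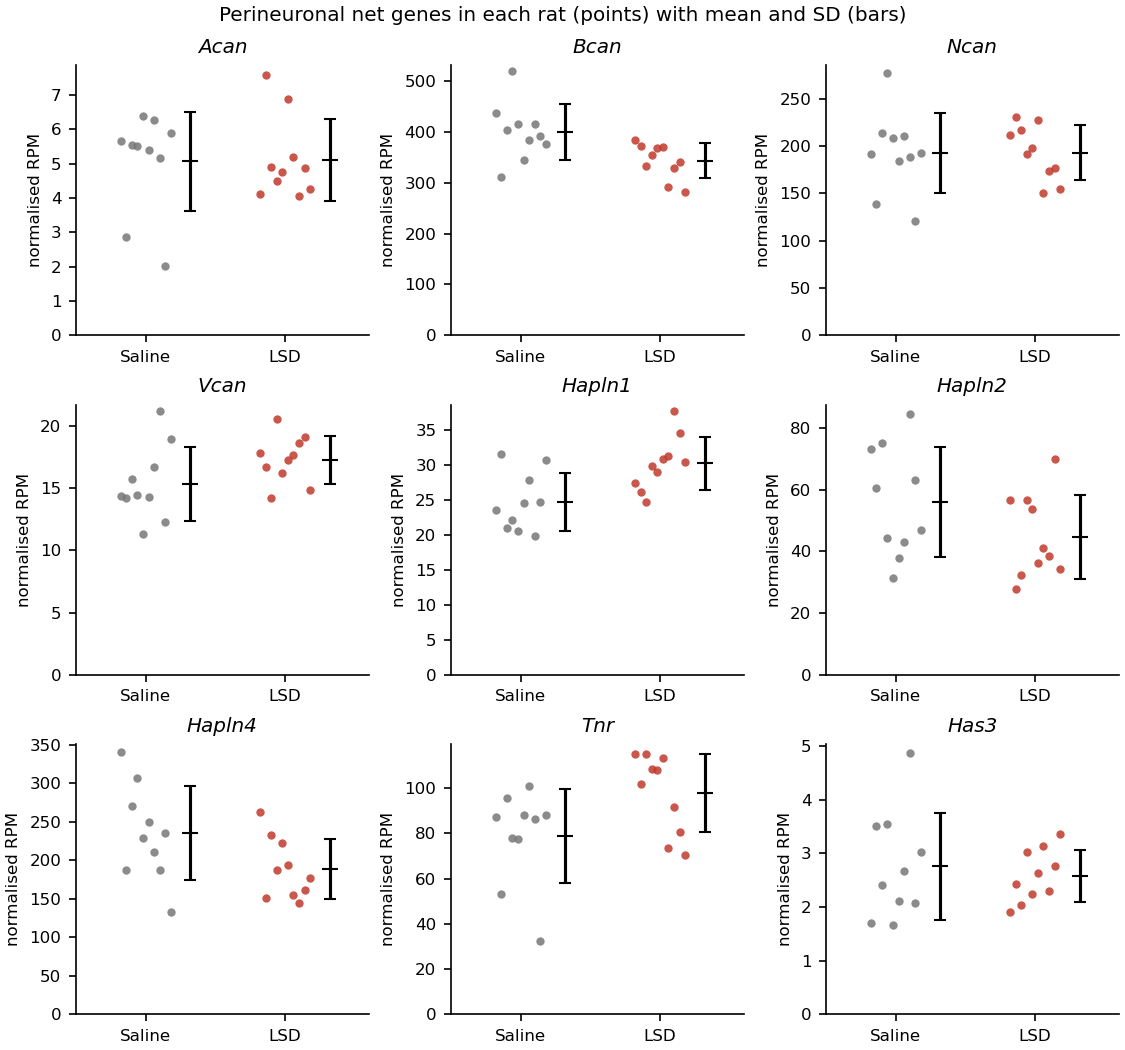
Level of each member in every rat, in normalised RPM (vertical axes, each starting at 0), for saline-treated (grey) and LSD-treated (red) rats; bars are the mean and SD of 10 rats. All 10 LSD-treated rats lay above the control median for *Hapln1* and below it for *Bcan*, and Saline rats 2 and 9 were the lowest controls for *Acan* and *Tnr*.

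*Hapln1* encodes the link protein that stabilises the bond between lecticans and hyaluronan in nets. Its level was 24.7 RPM in the lowest, 30.2 in the median and 37.7 in the highest LSD-treated rat, from 432 to 954 reads per library. In controls it was 19.8, 24.1 and 31.5 RPM, from 222 to 790 reads. The ranges overlapped, but all 10 LSD-treated rats were above the control median, 2 were above every control, and 7 controls were below every LSD-treated rat. The means were 30.2 ± 3.85 and 24.6 ± 4.14 RPM (SD, n = 10 each), a log2 fold change of 0.29 (SE 0.089, 95% interval 0.11 to 0.48), or 22.3% higher, with an edgeR quasi-likelihood adjusted p of 0.0317. The call was lost without LSD rat 8 (adjusted p = 0.0628), LSD rat 9 (0.0513), Saline rat 3 (0.0562), Saline rat 4 (0.0556) or Saline rat 5 (0.0567), and when the trend of each library with gene span, the length of a gene on the genome, was removed (log2 fold change 0.22, adjusted p = 0.0939).

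*Bcan* encodes brevican, the lectican most abundant in adult brain, made by glia and neurons. Its level was 282 RPM in the lowest, 348 in the median and 385 in the highest LSD-treated rat, from 6085 to 8343 reads. In controls it was 312, 397 and 520 RPM, from 4483 to 7832 reads. Every LSD-treated rat was below the control median, 2 were below every control and 6 controls were above every LSD-treated rat. The means were 343 ± 34.5 and 400 ± 55.5 RPM (SD, n = 10 each), a log2 fold change of −0.22 (SE 0.075, 95% interval −0.38 to −0.07), and the level fell by 14.3% with an edgeR adjusted p of 0.0485. That call lay at the edge of the threshold: it was lost with median-ratio factors (adjusted p = 0.0519), total counts (0.0656), no filter on low counts (0.0885) and removal of the span trend (0.0923), and without any 1 of LSD rats 2, 3, 4, 5, 7, 8, 9 and 10 or Saline rats 1, 3, 4, 5, 7, 8 and 9 (0.0525 to 0.104).

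Depth moved with both of these genes. After subtraction of the group means, *Bcan* fell with the number of reads on genes across the 20 rats (Pearson r = −0.69, permutation p = 0.00212, adjusted p = 0.0185 over 36 relations with 4 library measures; Spearman rho = −0.81, adjusted p = 0.00063), while *Hapln1* rose with it (r = 0.67, permutation p = 0.00257, adjusted p = 0.0185; rho = 0.66, adjusted p = 0.0188). Within LSD-treated rats alone r was −0.85 for *Bcan* and 0.61 for *Hapln1*, and within controls −0.61 and 0.70; without the 2 rats farthest from the median depth it was −0.69 and 0.53. Of the other members, *Ncan* also fell with depth (r = −0.73, adjusted p = 0.0127). *Hapln4* did so by rho (−0.60, adjusted p = 0.0336) but not by r (−0.57, adjusted p = 0.0549). *Tnr* and *Acan* (r = −0.56 each, adjusted p = 0.0612 and 0.0585) did not pass. *Has3*, *Vcan* and *Hapln2* had positive r that did not pass. LSD libraries were the deeper, with a median of 20271086 reads against 16815424. When every library was drawn down to 11098076 reads, adjusted p was 0.0457 for *Bcan* and 0.0411 for *Hapln1* with the same direction, a step that equalises the number of reads but not what else may vary with it, which was not tested.

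**Figure D2:**
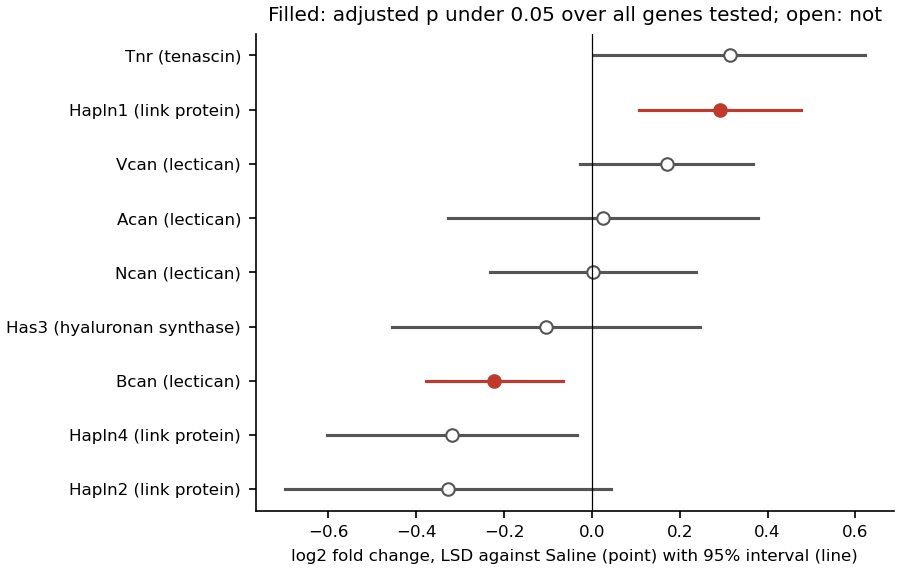
Log2 fold change of each member in LSD-treated against saline-treated rats (points) with its 95% interval (lines). The intervals of *Hapln1* (0.11 to 0.48) and *Bcan* (−0.38 to −0.07) are filled as passing after adjustment over all genes; *Tnr* and *Hapln4* have intervals that miss 0 but did not pass after adjustment.

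**Figure D3:**
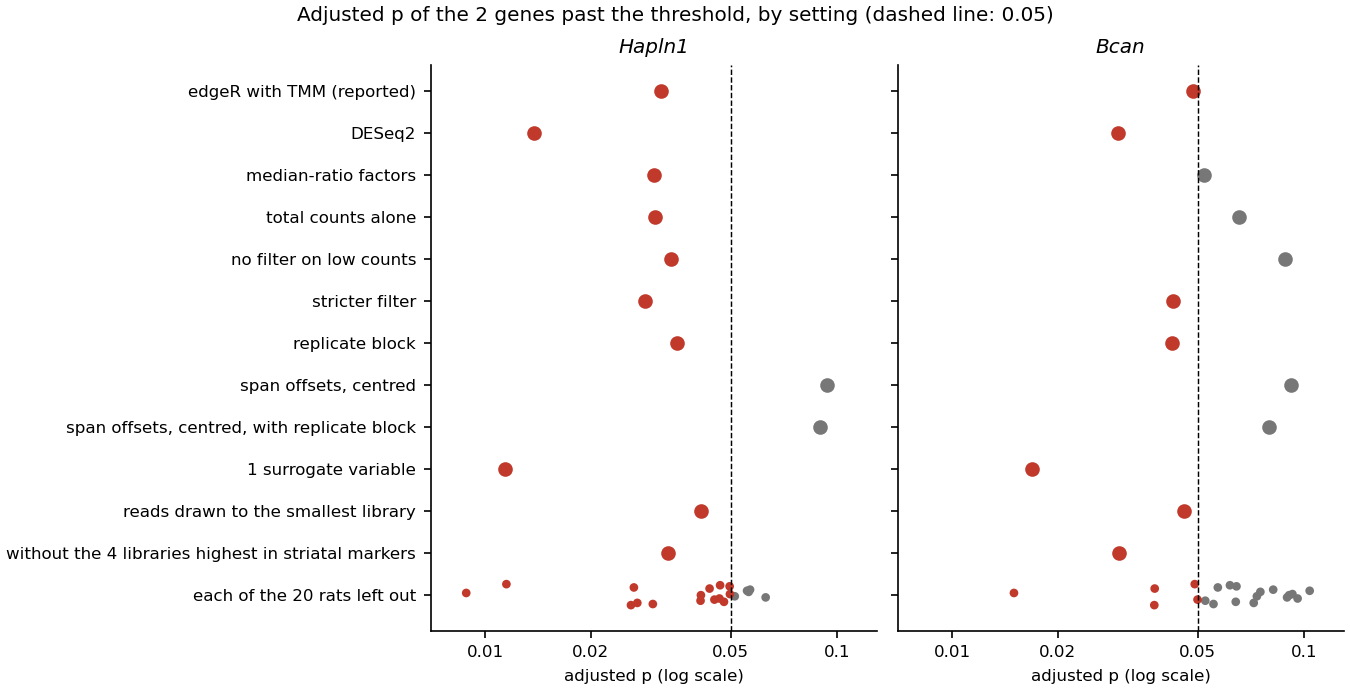
Adjusted p of *Hapln1* and *Bcan* (log axis) in the reported fit, under each alternative, and with each rat left out in turn; the dashed line is 0.05 and red points lie below it. *Hapln1* passed in 15 and *Bcan* in 5 of the 20 fits that left out 1 rat.

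Among the other lecticans, *Acan*, which encodes aggrecan, the defining proteoglycan of nets, was the one with the fewest reads (65 to 150 per LSD library and 40 to 117 per control library). Its level was 4.07, 4.82 and 7.60 RPM in the lowest, median and highest LSD-treated rat. In controls it was 2.01, 5.54 and 6.39 RPM. The means were almost the same, 5.12 ± 1.19 and 5.07 ± 1.45 RPM (SD, n = 10 each), although 8 LSD-treated rats lay below the control median. Saline rats 9 and 2, at 2.01 and 2.87 RPM, lay far below the other controls. The log2 fold change was 0.03 (95% interval −0.33 to 0.38, edgeR adjusted p = 0.940), it was −0.18 (adjusted p = 0.342) without the 4 libraries highest in striatal markers, which include both of these controls, and the interval leaves room for a change of 20.4% downwards or 30.1% upwards.

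*Ncan* encodes neurocan, a lectican of the developing and adult brain. Its level was 150, 195 and 230 RPM in the lowest, median and highest LSD-treated rat and 121, 192 and 278 RPM in controls. The LSD-treated rats lay wholly within the range of the controls, 5 of 10 above the control median, and the means were 193 ± 28.8 and 193 ± 42.6 RPM (SD, n = 10 each). The log2 fold change was 0.0027 (95% interval −0.23 to 0.24, edgeR adjusted p = 0.991), with a sign that turned without the 4 striatal-high libraries (−0.12, adjusted p = 0.423).

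*Vcan* encodes versican, found in nets, at nodes of Ranvier and in oligodendrocyte precursors. Its level was 14.2, 17.5 and 20.6 RPM in the lowest, median and highest LSD-treated rat and 11.3, 14.4 and 21.2 RPM in controls. Of the LSD-treated rats 9 of 10 were above the control median but none exceeded the highest control, and with means of 17.3 ± 1.93 and 15.4 ± 2.97 RPM (SD, n = 10 each) the log2 fold change of 0.17 (95% interval −0.03 to 0.37) did not pass the test (edgeR adjusted p = 0.234).

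*Hapln4* encodes a link protein that binds brevican and is found in nets of the brainstem and cerebellum in particular. Its level was 144, 182 and 263 RPM in the lowest, median and highest LSD-treated rat and 133, 232 and 340 RPM in controls. In 9 of 10 LSD-treated rats it was below the control median, though the lowest rat of all was a control. The means were 189 ± 39.3 and 235 ± 60.8 RPM (SD, n = 10 each), and the log2 fold change of −0.32 (95% interval −0.60 to −0.03) had an edgeR adjusted p of 0.117. Under some alternatives it passed, for example with 1 surrogate variable as a covariate (adjusted p = 0.0331) and without Saline rat 10 (0.0358), the lowest control.

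*Hapln2* encodes the link protein of myelinated axons. Its level was 27.8, 39.7 and 70.0 RPM in the lowest, median and highest LSD-treated rat and 31.3, 53.8 and 84.7 RPM in controls, largely overlapping, with means of 44.7 ± 13.7 and 56.0 ± 17.9 RPM (SD, n = 10 each). The log2 fold change was −0.33 (95% interval −0.70 to 0.04, edgeR adjusted p = 0.222). Across the 20 rats, with group means removed, *Hapln2* rose and fell with the summed oligodendrocyte markers (r = 0.87, rho = 0.85; permutation p = 1e-05 for r, the smallest that the permutations allow; adjusted p = 0.00018) and without the 2 rats farthest from the median of those markers r was 0.81. It did so with the oligodendrocyte precursor markers as well (r = 0.86, rho = 0.89, adjusted p = 0.00018 for r). The gene whose level was most like it, of all genes tested, was the myelin gene *Mag* (r = 0.98), followed by *Myrf* and *S1pr5* (both r = 0.96), all 3 expressed in oligodendrocytes. The 10 oligodendrocyte markers summed to 2403, 4106 and 6096 RPM in the lowest, median and highest LSD-treated rat and to 2429, 5055 and 7893 RPM in controls. All 10 had negative log2 fold changes, as did 49.6% of all genes tested. Of the 10, 1, *Cldn11*, was lower by the test (−0.46, adjusted p = 0.0175), beside 8.54% of all genes.

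*Tnr* encodes tenascin-R, the cross-linker of lecticans, made by oligodendrocytes and some interneurons. Its level was 70.5, 105 and 115 RPM in the lowest, median and highest LSD-treated rat. In controls it was 32.4, 86.9 and 101 RPM. Of the LSD-treated rats 6 were above every control, and Saline rat 9, at 32.4 RPM, and Saline rat 2, at 53.3 RPM, were below all others. The means were 97.9 ± 17.4 and 78.8 ± 20.8 RPM (SD, n = 10 each), a log2 fold change of 0.31 (95% interval 0.01 to 0.62, edgeR adjusted p = 0.155), which was 0.18 (adjusted p = 0.211) without the 4 striatal-high libraries, these controls among them.

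*Has3* encodes an enzyme that makes hyaluronan, and had the fewest reads of all members (30 to 85 per LSD library, 18 to 88 per control library). Its level was 1.90, 2.53 and 3.36 RPM in the lowest, median and highest LSD-treated rat and 1.67, 2.55 and 4.87 RPM in controls, so the LSD-treated rats lay within the range of the controls. The means were 2.58 ± 0.488 and 2.76 ± 1.004 RPM (SD, n = 10 each), with a log2 fold change of −0.10 (95% interval −0.46 to 0.25, edgeR adjusted p = 0.724) that was 0.06 (adjusted p = 0.826) without the 4 striatal-high libraries.

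The spread among rats was smaller in the LSD group for all 9 members, as the SD of log2 levels; over all genes tested it was smaller in that group for 76.7%. For *Acan* the SD of log2 levels was 0.26 in LSD-treated rats and 0.43 in controls, and for *Bcan* it was 0.15 and 0.20. Because most genes had the smaller spread in LSD-treated rats, the members' count was not read as particular to them.

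Members varied together in part. Of 36 pairs, correlated over the 20 rats after subtraction of group means, 4 passed (permutation test, Benjamini-Hochberg over 36), and all 4 were positive; with total counts in place of TMM factors 7 passed, among them the negative pairs *Vcan* with *Hapln4* (r = −0.62, adjusted p = 0.0396) and *Hapln1* with *Hapln4* (r = −0.62, adjusted p = 0.0366). *Ncan* varied with *Tnr* (r = 0.81, permutation p = 0.00011, adjusted p = 0.00396; rho = 0.68, permutation p = 0.00168, adjusted p = 0.0282), and r was 0.87 without the 2 rats farthest from the median *Ncan*. It varied with *Acan* (r = 0.76, permutation p = 0.00061, adjusted p = 0.0101; rho = 0.68, permutation p = 0.00079, adjusted p = 0.0282), and r was 0.51 without the 2 rats farthest from the median *Acan*. It also varied with *Bcan* (r = 0.73, permutation p = 0.00084, adjusted p = 0.0101; rho = 0.67, permutation p = 0.00235, adjusted p = 0.0282), and r was 0.56 without the 2 rats farthest from the median *Bcan*. *Acan* varied with *Tnr* (r = 0.76, permutation p = 0.00358, adjusted p = 0.0322; rho = 0.50, permutation p = 0.0238, adjusted p = 0.123), but r was 0.35 without Saline rats 2 and 9 and 0.21 within LSD-treated rats, so this relation rests on those controls. Only *Bcan* with *Ncan* passed without the 4 striatal-high libraries (r = 0.85, adjusted p = 0.0104), and *Ncan*, like *Bcan*, fell with depth (r = −0.73, adjusted p = 0.0127; rho = −0.80).

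**Figure D4:**
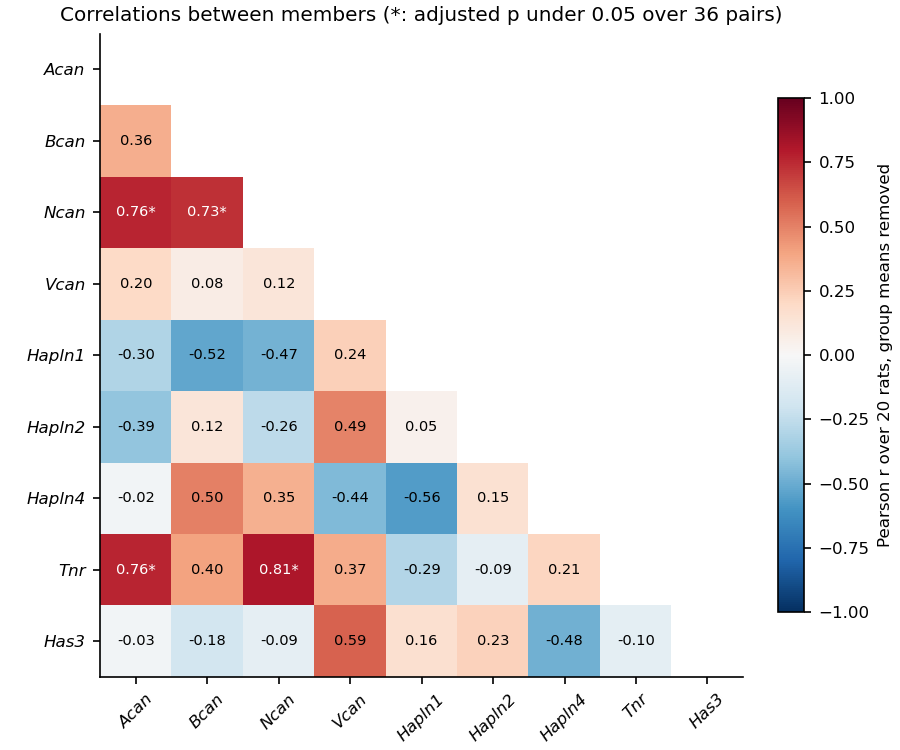
Pearson r between members over 20 rats after removal of group means (red positive, blue negative; an asterisk marks pairs that passed after adjustment). *Acan*, *Ncan* and *Tnr* correlate at 0.76 to 0.81, whereas *Hapln1* is negative with *Bcan* (−0.52), *Ncan* (−0.47) and *Hapln4* (−0.56), none of which passed on this TMM scale.

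The lectican and link protein genes lie in neighbouring pairs on the genome, with no gene between them in GRCr8: *Vcan* and *Hapln1* on chromosome 2, *Bcan* and *Hapln2* on chromosome 2, *Ncan* and *Hapln4* on chromosome 16, and *Acan* and *Hapln3* on chromosome 1. Over the 20 rats, with group means removed, r between these neighbours was 0.24 for *Vcan* and *Hapln1*, 0.12 for *Bcan* and *Hapln2* and 0.35 for *Ncan* and *Hapln4*, none of which passed. The called genes *Hapln1* and *Bcan* thus each had a neighbour that did not pass the test, which does not show that the neighbours differ.

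Further relations with cell-type markers passed. *Vcan* rose with the oligodendrocyte precursor markers (r = 0.64, permutation p = 0.00419, adjusted p = 0.0251; rho = 0.50, adjusted p = 0.0815), and *Acan* and *Ncan* fell with the oligodendrocyte markers (r = −0.62 and −0.61, adjusted p = 0.0283 and 0.0354). For *Vcan*, r was 0.47 without the 2 rats farthest from the median. Of the 6 precursor markers tested 3 were lower in LSD-treated rats, beside 8.54% of all genes. They were *Olig1* (−0.32, adjusted p = 0.0285), *Sox10* (−0.41, adjusted p = 0.00888) and *C1ql1* (−0.33, adjusted p = 0.0313). Precursor markers summed to 287 to 413 RPM in LSD-treated rats against 328 to 487 RPM in controls. Of the called genes, *Olig1* (adjusted p = 0.114) and *C1ql1* (0.0804) did not pass after removal of the span trend, nor *C1ql1* without the 4 striatal-high libraries (0.122), and *Olig1* passed in 16 and *C1ql1* in 12 of the 20 fits that left out 1 rat, while *Sox10* passed in all of these. The precursor markers *Pdgfra* (0.05, adjusted p = 0.745), *Olig2* (−0.15, adjusted p = 0.289) and *Gpr17* (−0.05, adjusted p = 0.730) did not pass, so the list did not move as 1. Of the 8 astrocyte markers 1, *Slc1a2*, was higher (0.41, adjusted p = 0.0423), beside 6.48% of all genes, with sums of 2990 to 3795 RPM against 2932 to 3684 RPM. In the reported fit none of the markers of excitatory neurons, microglia, endothelial and mural cells or meningeal fibroblasts passed, whereas *Gpr6* of the striatal list (−1.24, adjusted p = 0.0394) and *Hbb* of the blood list (−0.50, adjusted p = 0.0434) were lower. With the 4 striatal-high libraries left out, the endothelial and mural markers *Cldn5* (−0.22, adjusted p = 0.0159) and *Pdgfrb* (−0.34, adjusted p = 0.0237) were lower. The microglial marker *P2ry12* was then higher (0.29, adjusted p = 0.00945). *Slc1a2*, *Gpr6* and *Hbb* passed in 7, 9 and 8 of the 20 fits that left out 1 rat and not after removal of the span trend (adjusted p = 0.0782, 0.0625 and 0.104), and *Slc1a2* also not without the 4 striatal-high libraries (0.0679). *Gpr6* (−0.70, adjusted p = 0.0203) and *Hbb* (−0.54, adjusted p = 0.0260) did pass without those libraries, and so did *Adora2a* of the striatal list (−0.50, adjusted p = 0.0183). All 7 striatal markers had negative log2 fold changes in the reported fit, so leaving out those libraries did not remove every striatal difference between the groups. The part of these cells in the members' levels was not tested.

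The genes most like the other members in level over the 20 rats, by Pearson r with group means removed, were *Dag1* for *Acan* (0.91), *Ipo13* for *Bcan* (0.93), *Ptprf* for *Ncan* (0.94), *Kif13b* for *Vcan* (0.82), *Ncapg* for *Hapln1* (0.93), *Asb6* for *Hapln4* (0.94), *Hcfc1* for *Tnr* (0.98) and *Itga4* for *Has3* (0.86). Each was picked as the highest r of all genes tested. Spearman rho for these pairs ran from 0.78 (*Vcan*) to 0.92 (*Bcan*) and was 0.80 for *Tnr*, whose level was lowest in Saline rats 2 and 9.

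Around the members stand the genes that build, modify, cut and read the net. They were listed, as pathway genes, together with 10 markers of parvalbumin interneurons. Of the 74 genes so listed, 70 were tested, and 5 were higher and 5 lower in LSD-treated rats, beside 15.0% called over all genes. Of the 5 higher, 2 were parvalbumin interneuron markers. Among the 70 tested, 26 had positive and 44 negative log2 fold changes, with a median of −0.04. The proteases *Adamts4* and *Mmp14* were lower, and the receptor *Erbb4*, from the parvalbumin interneuron list, was higher. These 3 passed in each of the 11 alternatives run and without each of the 20 rats. Without the 4 striatal-high libraries 3 were higher and 15 lower, beside 10.2% and 10.1% of all genes, and after removal of the span trend 1 was higher and 4 were lower. The number higher was 2 without LSD rat 2, LSD rat 6, LSD rat 8, Saline rat 3 or Saline rat 5 and 3 without LSD rat 9 or Saline rats 1, 4 or 9; the number lower was 3 without LSD rats 7 or 8 or Saline rats 1, 4, 5 or 9, 9 without Saline rat 2 and 8 without Saline rat 10.

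**Figure D5:**
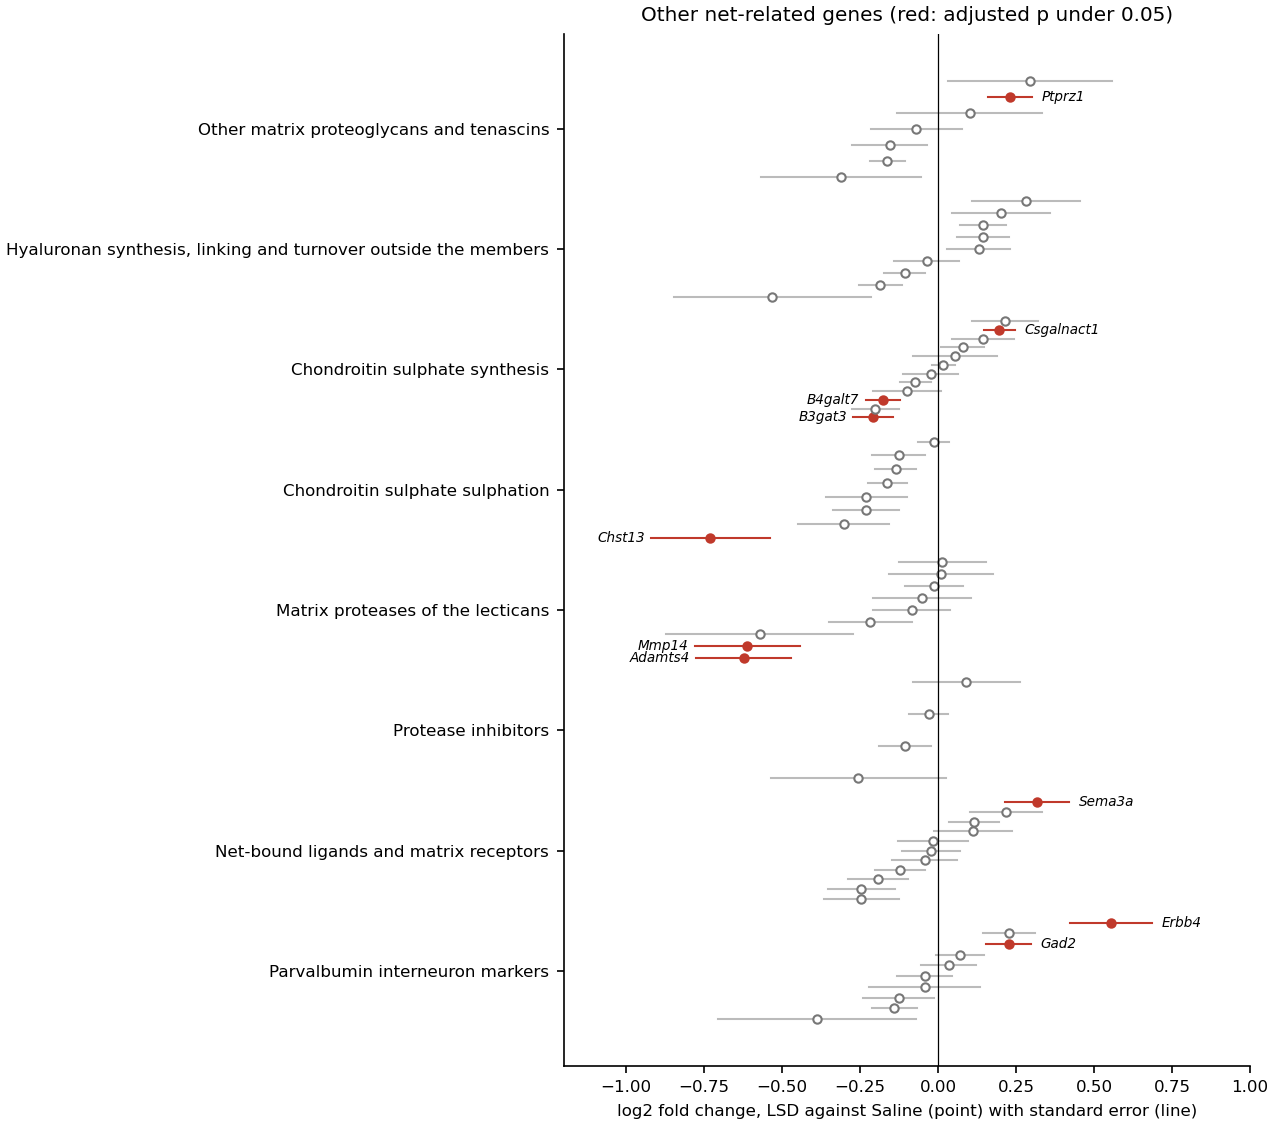
Log2 fold change (points) with its standard error (lines) of the 70 pathway genes tested, parvalbumin interneuron markers included, by list. Red genes, named, passed the test. All 8 sulphation genes lie left of 0, and the proteases *Adamts4* and *Mmp14* lie near −0.6.

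Of the proteases that cut lecticans, 2 of 9 tested were lower, beside 8.54% of all genes, and none was higher. Without the 4 striatal-high libraries 3 were lower, beside 10.1% of all genes, the other being *Adamts15*, named after its value was seen. *Adamts4*, an aggrecanase that cleaves brevican and aggrecan, was at 9.05, 11.4 and 17.7 RPM in the lowest, median and highest LSD-treated rat and 12.2, 17.1 and 29.6 RPM in controls, and 6 LSD-treated rats were below every control. Its log2 fold change was −0.62 (SE 0.15, edgeR adjusted p = 0.0114). The strand setting of the counting is not given in the sources used here, so reads of overlapping genes may not be told apart, and the level of *Adamts4* is uncertain to that extent. *Mmp14*, a membrane-bound matrix metalloproteinase, was at 8.66, 13.8 and 19.7 RPM in LSD-treated rats and 12.8, 22.4 and 28.3 RPM in controls, below the control median in all 10 LSD-treated rats (log2 fold change −0.61, SE 0.17, adjusted p = 0.0194). *Adamts5* (−0.22, adjusted p = 0.279) and *Mmp9* (−0.57, adjusted p = 0.200), the latter with 1 control at 21.1 RPM against a control median of 4.08, did not pass, *Mmp3* had too few reads to be tested, and none of the 4 protease inhibitors passed.

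Among the 12 genes of chondroitin sulphate synthesis, 1 was higher and 2 were lower, beside 6.48% and 8.54% of all genes. Without the 4 striatal-high libraries 1 was higher and 3 were lower, beside 10.2% and 10.1%. *Csgalnact1*, which starts the chondroitin chain, was at 33.1 to 37.9 RPM in LSD-treated rats and 26.3 to 34.8 RPM in controls, 9 LSD-treated rats being above every control (log2 fold change 0.20, SE 0.050, edgeR adjusted p = 0.0145). It passed without each of the 20 rats but not after removal of the span trend (0.08, adjusted p = 0.369), and it overlaps a protein-coding locus in GRCr8, which leaves the same doubt on its reads. *B4galt7* (−0.18, adjusted p = 0.0319) and *B3gat3* (−0.21, adjusted p = 0.0283), which make the linkage between core protein and chain, were lower, each below the control median in all 10 LSD-treated rats, and each passed in 12 of the 20 fits that left out 1 rat but not after removal of the span trend (adjusted p = 0.102 and 0.0955) or with no filter on low counts (0.0817 and 0.0675); *B4galt7* also did not pass with total counts (0.0873).

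The 8 sulphotransferase genes that set the sulphation of the chains all had negative log2 fold changes, as did 49.6% of all genes tested, with a median of −0.20 against 0.0022, and 1 was lower by the test, beside 8.54% of all genes. Without the 4 striatal-high libraries 5 of the 8 were lower, beside 10.1% of all genes: *Chst13* (adjusted p = 0.0139), *Chst11* (0.0388) and, named after their values were seen, *Chst7* (0.0286), *Chst12* (0.04996) and *Chst14* (0.0284). *Chst13*, a chondroitin 4-O-sulphotransferase, was at 0.297 to 0.553 RPM in LSD-treated rats and 0.352 to 1.11 RPM in controls, 9 of which were above every LSD-treated rat (log2 fold change −0.73, SE 0.19, edgeR adjusted p = 0.0156), from 216 reads in all 20 libraries. It passed without each of the 20 rats, but not with drawn reads (adjusted p = 0.0512), and DESeq2 gave it no adjusted p. *Chst3*, a 6-O-sulphotransferase (−0.23, adjusted p = 0.235), and *Chst11*, a 4-O-sulphotransferase (−0.14, adjusted p = 0.163), did not pass, although *Chst11* did after removal of the span trend (−0.25, adjusted p = 0.0189). Across the 8 genes the summed level was 168 to 197 RPM in LSD-treated rats and 176 to 225 RPM in controls.

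Of 7 other matrix proteoglycans and tenascins tested, 1 was higher, beside 6.48% of all genes. *Ptprz1*, a receptor phosphatase whose secreted form is the proteoglycan phosphacan, was at 159, 182 and 202 RPM in the lowest, median and highest LSD-treated rat and 127, 148 and 193 RPM in controls, and every LSD-treated rat was above the control median (log2 fold change 0.23, SE 0.070, edgeR adjusted p = 0.0301). It passed in 11 of the 20 fits that left out 1 rat, and not after removal of the span trend (0.13, adjusted p = 0.154), with drawn reads (0.0516) or without the 4 striatal-high libraries (0.0664). *Cspg5*, neuroglycan C, was at 199 to 261 RPM in LSD-treated rats and 225 to 299 RPM in controls, below the control median in all 10 LSD-treated rats, and lay just outside the threshold (−0.16, adjusted p = 0.0530), which it passed without the 4 striatal-high libraries (−0.19, adjusted p = 0.0427). *Tnc* (−0.07, adjusted p = 0.791) and *Cspg4* (−0.16, adjusted p = 0.405) did not pass. Among 9 other genes of hyaluronan synthesis, linking and turnover none passed, including the link protein gene *Hapln3* (−0.04, adjusted p = 0.852) and the synthase *Has2* (−0.53, adjusted p = 0.264, from 111 reads in all).

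Among 11 ligands and receptors of the net tested, *Sema3a*, a repellent guidance protein that binds the chondroitin chains of nets, was higher: 20.8, 25.4 and 30.6 RPM in the lowest, median and highest LSD-treated rat against 12.8, 19.99 and 27.0 RPM in controls (log2 fold change 0.32, SE 0.10, edgeR adjusted p = 0.0395). Every LSD-treated rat was above the control median, but the gene passed in 9 of the 20 fits that left out 1 rat, and not after removal of the span trend (adjusted p = 0.130), with drawn reads (0.0773) or without the 4 striatal-high libraries (0.109). *Ptprs*, a receptor for chondroitin sulphate, did not pass (−0.04, adjusted p = 0.825). In the reported fit 1 of these 11 genes was higher, beside 6.48% of all genes, and none was lower. With the 4 striatal-high libraries left out, none was higher and 3 were lower, beside 10.1% of all genes. Named after their values were seen, they were *Nptxr* (−0.37, adjusted p = 0.0259), *Rtn4r* (−0.31, adjusted p = 0.0470) and *Nptx2* (−0.28, adjusted p = 0.0485).

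Of the 10 parvalbumin interneuron markers, 2 were higher, beside 6.48% of all genes, and the gene that gives the cells their name was not among them. *Pvalb*, the calcium-binding protein, was at 30.8, 36.9 and 42.9 RPM in the lowest, median and highest LSD-treated rat and 30.8, 34.8 and 53.8 RPM in controls (log2 fold change −0.04, 95% interval −0.22 to 0.14, edgeR adjusted p = 0.787), and the potassium channel gene *Kcnc1* also did not pass (−0.13, adjusted p = 0.486). *Erbb4*, the neuregulin receptor of these interneurons, was at 15.8, 22.3 and 25.4 RPM in LSD-treated rats and 6.45, 15.9 and 17.7 RPM in controls, 9 LSD-treated rats being above every control (log2 fold change 0.56, SE 0.13, adjusted p = 0.01001). *Gad2*, an enzyme of GABA synthesis, was at 74.8, 86.6 and 93.9 RPM in LSD-treated rats and 50.7, 73.3 and 90.5 RPM in controls (log2 fold change 0.23, SE 0.072, adjusted p = 0.0369), and passed in 9 of the 20 fits that each left out 1 rat, but not after removal of the span trend (adjusted p = 0.0982). As background, *Erbb4* and *Gad2* are expressed by interneurons of other classes too.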

How the data were processed

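Deposited values are raw read counts per gene, made by the authors with HTSeq-count from Hisat2 alignments to rn6 after trimming by TrimGalore, and not normalised. Tool settings, annotation and strand are not given in the sources used here. The 5 unnamed entries held 25.5% to 29.0% of each library's total and entered no step. Groups came from sample labels.

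A gene was kept if 10 or more libraries had 5 or more of its reads (16605 genes). LSD was tested against saline with edgeR 4.0.16 (R 4.3.3; TMM factors, quasi-likelihood test, Benjamini-Hochberg over all kept genes, threshold 0.05). RPM are TMM-normalised and were not divided by gene length, so levels are not compared between genes. Correlations used log2(RPM + 1), group means removed, and 100000 permutations within groups. Alternatives used DESeq2 1.42.0, median-ratio or total-count scaling, no filter or one of 20 reads, a replicate block, offsets for gene span (GRCr8 spans, 89.9% of genes matched), 1 surrogate variable (sva 3.50.0), reads drawn to the smallest library, and each rat left out; omission of the 4 striatal-high libraries was chosen after seeing the data. The fits were checked on simulated data.

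The members and lists were chosen with earlier results of these data known. Named genes are all members, list genes past the threshold, a short set fixed whatever its result, and the closest genes to each member. RPM from few reads (*Has3*, *Acan*, *Chst13*, *Has2*) are the least precise.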

Additional observations from a re-analysis of the deposited data

How the results depend on the processing

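The sign of *Hapln1* and *Bcan* held in every alternative and leave-out; their calls did not. The number of members called lower, 1 in the reported fit, was 0 with median-ratio factors, total counts, no filter, and span offsets with or without the block, and 2 with 1 surrogate variable; the number called higher, 1, was 0 with span offsets with or without the block. Leaving out each rat gave 0 to 1 member higher and 0 to 2 lower, 659 to 1681 genes higher and 907 to 1867 lower, and 2 to 5 pathway genes higher and 3 to 9 lower. Over all genes, 1076 higher and 1418 lower became 1504 and 858 with total counts, 960 and 836 with no filter, and 564 and 1127 with span offsets; without the 4 striatal-high libraries 1691 were higher. Log2 fold change rose with gene span across 14930 genes (rho = 0.36), which are not independent. Pathway genes lower, 5 in the reported fit, were 3 with no filter, 9 with 1 surrogate variable and 15 without the 4 libraries; those higher, 5, were 1 with span offsets with or without the block, 3 with drawn reads and 3 without the 4 libraries. The direction turned for *Acan* with span offsets (−0.0363), span offsets and block (−0.0183), drawn reads (−0.0428) and without the 4 libraries (−0.18), for *Ncan* with span offsets (−0.0046) and without the 4 (−0.12), and for *Has3* without the 4 (0.0616); over leave-outs these ran from −0.0725 to 0.0659, −0.0560 to 0.0748 and −0.16 to 0.0236. Correlated member pairs numbered 7 with total counts and 1 without the 4 libraries. The causes were not tested beyond these settings. *Acan*, *Has3* and *Chst13* are limited by read number.

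Rats of the 2 groups share replicate numbers, but same-numbered rats deviated together (r over 0.1) in only 6 of 10 pairs, from −0.26 to 0.47, and 3 of 20 rats correlated best with their own number, so the numbers were not taken as pairing. With the replicate block, 1355 genes were higher and 1606 lower, 8 pathway genes were lower, and 2 members were lower, *Bcan* (−0.22, adjusted p = 0.0423) and *Hapln4* (−0.30, adjusted p = 0.0246).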
